A study of Mus musculus with 6 samples.

Results

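The Dlk1-Dio3 imprinted cluster of mouse chromosome 12 was followed through 6 genes, named by symbol with earlier results of these data known. They were the protein-coding genes Dlk1, Rtl1 and Dio3 and the non-coding RNA genes Meg3, Rian and Mirg. All 6 were found among the 42450 genes of the deposited table, and all 6 passed the filter on low counts that 18905 genes passed. The libraries hold total RNA of the male mouse embryonic stem cell line E14tg2a.4 (WT, 3 libraries) and of CG0630, a gene-trap line made from it that is heterozygous for Srrm2 (Srrm2+/-, 3 libraries). In Srrm2+/- cells, a trapping cassette sits in 1 copy of Srrm2, whose protein is a component of nuclear speckles with a role in splicing. Both lines were kept on gelatin in medium with serum and LIF, and were grown in serum-free medium with LIF before collection. Neither line received a further treatment. The Srrm2+/- line is 1 clone, and its replicates were independently frozen batches at earlier passages than those of WT, so genotype, clone and passage cannot be told apart.

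At imprinted genes only the copy inherited from a given parent is active. In this cluster the coding genes Dlk1, Rtl1 and Dio3 are expressed mainly from the paternal chromosome and the non-coding RNAs from the maternal chromosome. A methylated control region between Dlk1 and Meg3 governs both sides, and the zinc finger protein ZFP57 with its partner TRIM28 and the methyltransferase DNMT1 keep the mark through early development. In pluripotent stem cells, expression of the maternal non-coding RNAs is widely used as a sign that the maternal copy has not been silenced. The counts used here do not separate the parental copies.

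The stretches before the starts of Meg3 and Dlk1 are shown because they belong to the first non-coding and the first coding gene of the cluster, on either side of the control region. Both come from RefSeq on GRCm38.p6 and lie on the plus strand, and capitals mark matches to the motifs searched. The Meg3 stretch, chr12:109540746-109541045, runs 250 bases before and 50 bases past the RefSeq start, and that of Dlk1, chr12:109452573-109452822, holds the 250 bases before the start.
Meg3: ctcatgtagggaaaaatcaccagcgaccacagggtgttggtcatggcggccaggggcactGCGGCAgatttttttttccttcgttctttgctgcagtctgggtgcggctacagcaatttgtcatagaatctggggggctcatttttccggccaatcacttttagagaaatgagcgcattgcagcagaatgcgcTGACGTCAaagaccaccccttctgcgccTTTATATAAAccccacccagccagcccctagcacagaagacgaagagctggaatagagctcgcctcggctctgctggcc
Dlk1: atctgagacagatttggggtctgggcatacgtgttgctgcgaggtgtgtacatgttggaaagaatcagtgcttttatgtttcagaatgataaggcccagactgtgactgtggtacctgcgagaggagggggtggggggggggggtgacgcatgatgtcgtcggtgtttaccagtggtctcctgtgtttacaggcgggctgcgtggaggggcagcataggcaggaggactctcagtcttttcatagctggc
Windows of 300 bases were searched on both strands for the ZFP57 motif TGCCGC, the cyclic AMP response element TGACGTCA and the TATA box TATAAA. The Meg3 window held 1 match to the ZFP57 motif (on the minus strand, so that the printed strand reads GCGGCA), 1 match to the response element, and 2 overlapping matches to the TATA box, 1 per strand. The Dlk1 window of 300 bases held none of the 3 motifs. Of 32851 mouse promoter windows of that length, 11.6% held the ZFP57 motif, 1.79% the response element and 13.6% the TATA box. The Dio3 window (chr12:110278980-110279279) held 1 TATA box and 25 CG pairs, against 13 CG pairs at Meg3, 9 at Dlk1, 10 at Mirg, 0 at Rian and a median of 7 over all windows. The Mirg window (chr12:109734731-109735030) is set on a RefSeq start that lies inside the Mirg gene of GENCODE (chr12:109729764-109749460). A match is only a run of letters, and methylation of these windows was not measured.

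All 6 cluster genes rose in Srrm2+/- cells, the non-coding RNAs by 0.29 to 0.54 on the log2 scale (1.22- to 1.45-fold) and the coding genes by 0.59 to 1.74, which for Dio3 was 3.33-fold. Every Srrm2+/- library lay above every WT library for each of the 6 genes. Of all 18905 tested genes, 25.3% passed the test (13.6% higher and 11.7% lower), and 21.4% had all Srrm2+/- libraries above all WT libraries. The median log2 fold change was 0.56 over the 6 cluster genes and -0.00254 over all tested genes. The test was edgeR's two-sided quasi-likelihood test with Benjamini-Hochberg adjustment over all tested genes and a threshold of 0.05, and adjusted p-values with no other name come from it. In bulk RNA, a change in the number of expressing cells and a change in RNA per cell cannot be told apart.

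**Figure D1:**
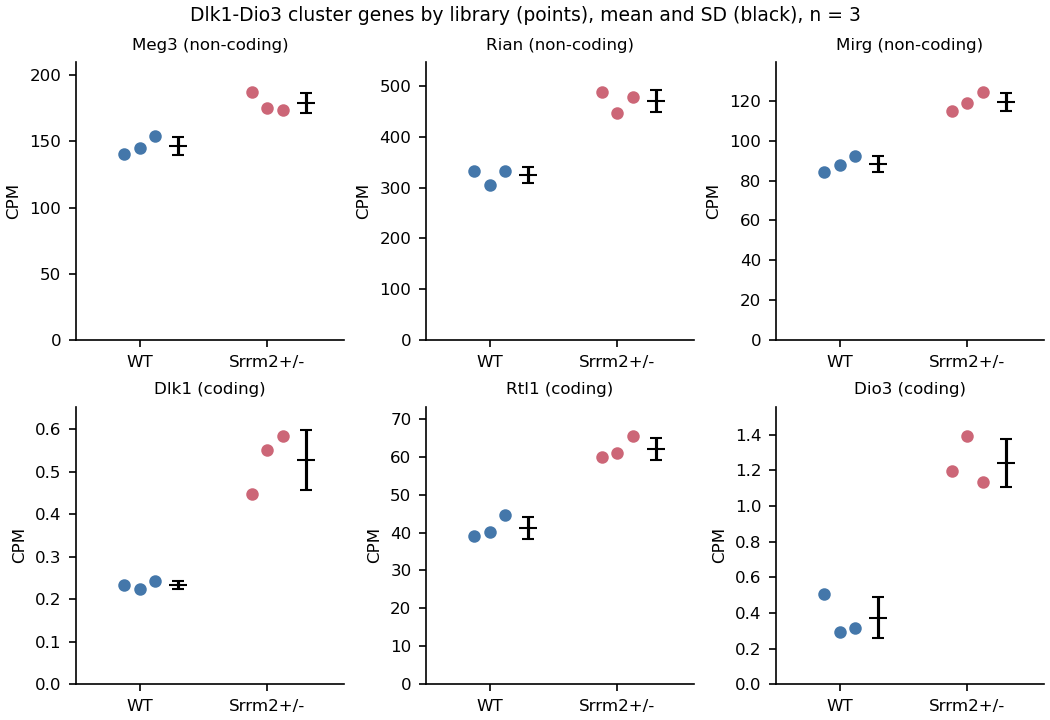
Normalised counts (CPM, counts scaled to a library total of 1000000, linear axis from 0, a separate scale per panel) of the 6 cluster genes in each WT and Srrm2+/- library (points), with the mean and SD of 3 libraries in black. In every panel the 3 Srrm2+/- points lie above the 3 WT points, and Dlk1 and Dio3 lie below 2 CPM where Rian reaches 488 CPM.

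Meg3 (ENSMUSG00000021268, plus strand, chr12:109541001-109571726 on GRCm38) encodes a long non-coding RNA at the head of the maternal transcripts. Its normalised count (CPM, counts scaled to a library total of 1000000) was 141, 145 and 154 in the WT libraries and 187, 175 and 174 in the Srrm2+/- libraries. The lowest Srrm2+/- library was therefore above the highest WT library, and the means were 147 ± 6.77 and 179 ± 7.29 CPM (SD, n = 3 each). Meg3 rose by a log2 fold change of 0.29 (SE 0.05, adjusted p = 0.00245), the smallest rise among the 6 genes. Of all tested genes, 20.2% had a larger log2 fold change. In GENCODE M21 transcripts, 11.4% of the 31-base words of Meg3 also occur in other genes, 6.42% in Gm26906, so some of its reads may have been divided among genes.

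Rian (ENSMUSG00000097451, plus strand, chr12:109603940-109661716) hosts the box C/D small nucleolar RNAs (snoRNAs) of the cluster, processed from its introns. It was the most abundant cluster gene, at 333, 306 and 334 CPM in WT and at 488, 447 and 478 CPM in Srrm2+/-. The groups were far apart relative to their spread, with means of 324 ± 15.9 and 471 ± 21.8 CPM (SD, n = 3 each). Rian rose by 0.54 on the log2 scale (SE 0.05, adjusted p = 0.000111).

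Mirg (ENSMUSG00000097391, plus strand, chr12:109729764-109749460) hosts many of the cluster's microRNAs. The WT libraries had 84.5, 87.7 and 92.5 CPM, and the Srrm2+/- libraries, all higher, had 115, 119 and 125 CPM. Mirg rose by 0.44 on the log2 scale (SE 0.05, adjusted p = 0.000228), between those of Meg3 and Rian. Of the 3 non-coding genes, the median log2 fold change was 0.44.

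Rtl1 (ENSMUSG00000085925, minus strand, chr12:109589193-109600330) derives from a retrotransposon and is known for its role in the fetal vessels of the placenta. It was by far the most abundant coding member, with 39.1, 40.2 and 44.5 CPM in WT and 59.9, 60.9 and 65.4 CPM in Srrm2+/-. Rtl1 rose by 0.59 on the log2 scale (SE 0.06, adjusted p = 0.000153). The maternal chromosome carries an RNA antisense to Rtl1 with microRNA genes opposite its body. The strand setting of the counting was not given in the sources used here, so Rtl1 reads and reads of the antisense RNA cannot be told apart. On the strand opposite Rtl1, Mir431, Mir433, Mir127 and Mir434 were listed at 0 counts in all 6 libraries. All 31-base words of these 4 genes (100%, either strand) also occur in Rtl1, so reads from them could be assigned to Rtl1 and a count of 0 does not measure their expression.

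Dlk1 (ENSMUSG00000040856, plus strand, chr12:109452823-109463336) encodes a transmembrane protein of the Delta and Notch family known for restraining adipocyte differentiation. It was close to the detection limit, with 13 counts in each of the 3 WT libraries and 31, 38 and 36 in the Srrm2+/- libraries, out of library totals of 54151433 to 69933421. In CPM these were 0.234, 0.225 and 0.243 in WT and 0.448, 0.551 and 0.583 in Srrm2+/-. Dlk1 rose by 1.17 on the log2 scale (SE 0.29, adjusted p = 0.0166). Its call was lost with DESeq2 (1.17, adjusted p = 0.0672) and without WT replicate 2 (1.14, adjusted p = 0.0555), Srrm2+/- replicate 2 (1.13, adjusted p = 0.0558) or Srrm2+/- replicate 3 (1.09, adjusted p = 0.0704).

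Dio3 (ENSMUSG00000075707, plus strand, chr12:110279068-110281097) encodes the deiodinase that inactivates thyroid hormone and lies at the far end of the cluster. It had 28, 17 and 17 counts in WT and 83, 96 and 70 in Srrm2+/-, or 0.505, 0.294 and 0.317 CPM against 1.20, 1.39 and 1.13 CPM. WT replicate 1 was the highest of its group and still below every Srrm2+/- library. Dio3 rose by 1.74 on the log2 scale (SE 0.26, adjusted p = 0.00138), the largest rise among the 6 genes, and 2.03% of all tested genes had a larger log2 fold change. A single-exon gene, it had no 31-base word in common with another gene, and neither had Dlk1.

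Per kilobase of annotated exon, the cluster genes had the same order of mean level in both groups. In WT the level was 17.8 ± 0.870 CPM per kb for Rian, 12.1 ± 0.550 for Mirg, 8.10 ± 0.374 for Meg3, 6.49 ± 0.452 for Rtl1, 0.183 ± 0.0568 for Dio3 and 0.0414 ± 0.00158 for Dlk1 (SD, n = 3 each). In Srrm2+/- it was 25.8 ± 1.19 for Rian, 16.4 ± 0.643 for Mirg, 9.89 ± 0.403 for Meg3, 9.76 ± 0.458 for Rtl1, 0.612 ± 0.0660 for Dio3 and 0.0932 ± 0.0125 for Dlk1. Meg3 and Rtl1, neighbours in this order, did not differ beyond their spread in Srrm2+/-, and Meg3 was above Rtl1 in every WT library. The other neighbours were separated in all libraries of both groups. Annotated exon length adds up all exons of a gene, so the order would shift if a shorter isoform carried most of the reads.

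Coding and non-coding genes were compared within each library as a ratio, which scaling between libraries enters only through the counts added. The log2 ratio of Dlk1 to Meg3 (2 counts added, scaled to library size) was -9.04, -9.14 and -9.13 in WT and -8.61, -8.23 and -8.14 in Srrm2+/-. The groups did not overlap, and their means were -9.10 ± 0.0524 and -8.33 ± 0.246 (SD, n = 3 each). The ratio was higher in Srrm2+/- by 0.78, with p = 0.1 in a two-sided exact permutation test, the smallest p that 3 against 3 libraries can give. The Dlk1 side of the ratio rests on 13 to 38 counts a library, and with 0.5 counts added the difference was 0.85. The ratio to Meg3 was also higher in Srrm2+/- by 1.40 for Dio3, 0.30 for Rtl1, 0.25 for Rian and 0.15 for Mirg on the log2 scale, again without overlap between the groups and with no test run. Rtl1, a coding gene, and Rian, a non-coding gene, thus shifted against Meg3 by 0.30 and 0.25, and the largest shifts were those of the 2 scarcest genes, Dio3 and Dlk1.

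**Figure D2:**
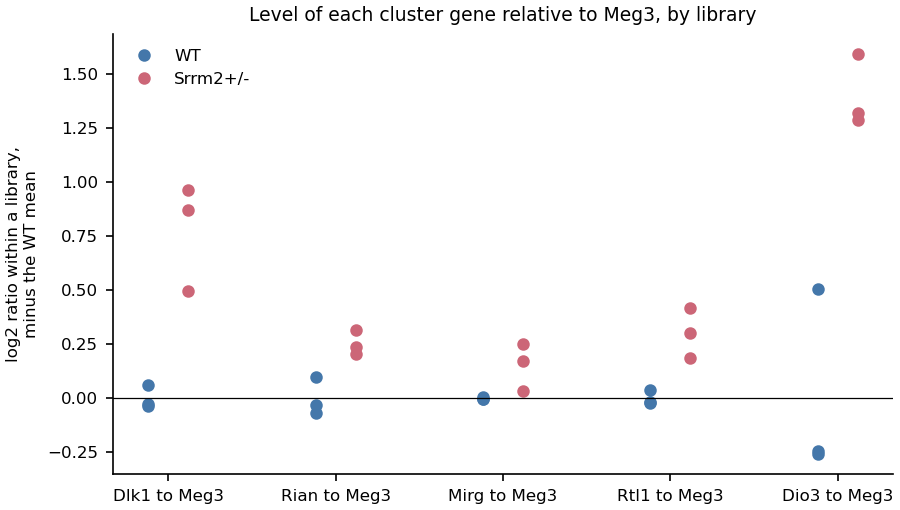
Log2 ratio of each cluster gene to Meg3 within a library, minus the mean of the WT libraries, for the 3 WT and 3 Srrm2+/- libraries (points). The Srrm2+/- points lie above the WT points in all 5 ratios, by 0.15 on average for Mirg and by 1.40 for Dio3.

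Between the start of Dlk1 and the end of Dio3, the annotation places 112 other genes. Of these, 89 were in the table (59 microRNA and 23 snoRNA genes among them), 30 of them at 0 in all 6 libraries and 33 others below the filter, which left 26 tested. Some genes at 0 have all their 31-base words in a longer transcript, so a count of 0 does not measure their expression. Examples are the snoRNA genes Gm23474 and AF357425 (in Rian), Gm24899 (in Gm26945) and Gm23347 (in Gm37899), and Mir770 (in Meg3). Other genes at 0, such as Gm23600 and Gm25357, share no such word. The log2 fold change was above 0 for 25 of the 26, with a median of 0.44. Of the 26, 5 rose (19.2%) and 0 fell, against 13.6% and 11.7% of all tested genes. They include 16 microRNA and 6 snoRNA genes, types of which 2.34% and 0% rose elsewhere in the genome. Some lie within a longer gene, as Gm26945 does in Rian and Mir453 in Mirg. The 26 are therefore not independent of the cluster genes or of each other. At an unadjusted p under 0.05, 9 were higher and 0 lower with edgeR, and the share of all tested genes at this threshold was not counted. The number called higher was 4 with limma voom and 3 with DESeq2, and 0 were lower with either. The only gene below 0 was B830012L14Rik, a long non-coding RNA with 1.68 ± 0.0800 CPM in WT against 1.63 ± 0.0614 CPM (log2 fold change -0.0421, SE 0.147).

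The 5 genes that rose were Mir3070b, Gm37899, Gm26945, Mir654 and the snoRNA gene Gm25854. Gm37899, a transcript between Rian and the microRNA genes that awaits experimental validation in the annotation, went from 2045, 1879 and 1938 counts in WT to 2924, 3292 and 3107 in Srrm2+/- (log2 fold change 0.41, SE 0.07, adjusted p = 0.00383). Gm26945, a long non-coding RNA gene that lies within Rian, went from 929, 783 and 792 counts to 1246, 1346 and 1215 (log2 fold change 0.34, SE 0.08, adjusted p = 0.0143). Both estimates lay between those of Meg3 (0.29) and Mirg (0.44), and 2.29% of the 31-base words of Gm37899 and 2.17% of those of Gm26945 occur in other genes. The short genes had far fewer counts and larger standard errors. Mir654 had 7, 12 and 7 counts in WT against 26, 21 and 27 (log2 fold change 1.25, SE 0.37, adjusted p = 0.0365), and Gm25854 had 7, 6 and 5 against 12, 29 and 19 (log2 fold change 1.46, SE 0.46, adjusted p = 0.0464). Over 14 settings in which the call could be made, Mir3070b and Gm37899 were called in 14, Gm26945 in 13, Mir654 in 5 and Gm25854 in 4.

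Mature sequences from RefSeq (GRCm38.p6) are given, with the seed, bases 2 to 8, in capitals, for the microRNA genes that rose, for Mir3070a, which gives the same 5p sequence as Mir3070b, and for a pair of higher but uncalled genes that share a seed.
miR-3070-5p (Mir3070a and Mir3070b): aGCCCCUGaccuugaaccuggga
miR-3070-3p (Mir3070a): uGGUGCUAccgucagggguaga
miR-3070-2-3p (Mir3070b): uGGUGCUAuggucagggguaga
miR-654-5p: uGGUAAGCugcagaacaugugu
miR-654-3p: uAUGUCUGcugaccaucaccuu
miR-453: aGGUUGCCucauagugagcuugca
miR-496a-5p: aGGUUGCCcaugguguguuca
Mir3070a and Mir3070b give the same 5p sequence and 3p sequences with the same seed. Mir3070b had 20, 38 and 25 counts in WT and 93, 83 and 79 in Srrm2+/-, a log2 fold change of 1.36 (SE 0.25, adjusted p = 0.00385). Mir3070a, with 55, 53 and 45 counts against 46, 85 and 89, overlapped between the groups (log2 fold change 0.28, SE 0.28, adjusted p = 0.539). Since 22% of the 31-base words of each occur in the other, their counts were also summed, which gave 75, 91 and 70 in WT and 139, 168 and 168 in Srrm2+/- (log2 fold change 0.76, SE 0.17, adjusted p = 0.0116). This sum was added after the values were seen.

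miR-453 and miR-496a-5p share a seed with each other. Their genes were higher in every Srrm2+/- library without passing the test, Mir453 with 40, 56 and 35 counts in WT against 79, 88 and 75 (adjusted p = 0.0570) and Mir496a with 30, 23 and 28 against 42, 47 and 42 (adjusted p = 0.241). Mir679, Mir1193, Mir376c and the snoRNA gene Gm25224 were also without overlap and not called. All 11 of the 26 tested genes whose groups did not overlap were higher in Srrm2+/-, and among all tested genes 21.4% were higher and 20% lower in this way. Of the 16 tested microRNA genes, 14 had a mature sequence in the RefSeq table. Total RNA counts over a hairpin of this length may come from longer transcripts or precursors and do not measure the mature microRNA.

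The short RNA genes of the cluster were set beside those elsewhere in the genome. All 6 tested snoRNA genes of the cluster had a log2 fold change above 0, with a median of 0.63, and 1 rose. Of the 209 tested snoRNA genes elsewhere, 95 fell (45.5%), with a median of -0.72, which was the same with the 5 genes at 0 in a whole group set to the bound that 3 counts over the group give. All 16 microRNA genes of the cluster were above 0, with a median of 0.40 and 2 that rose, against a median of 0.14, 5 that rose and 2 that fell among 214 elsewhere. The difference between the cluster and other loci was not tested. The 6 snoRNA genes of the cluster had 5 to 57 counts a library, and all but Gm24564 lie past the annotated end of Rian. Rian had 17687 to 33798 counts.

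**Figure D3:**
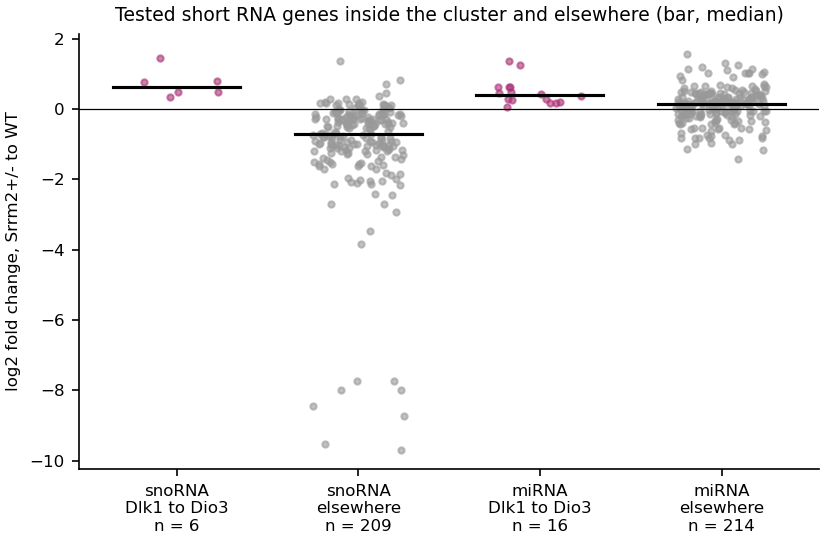
Log2 fold change of Srrm2+/- to WT for each tested snoRNA and microRNA gene between Dlk1 and Dio3 (purple) and elsewhere in the genome (grey), with the median as a bar. The 6 cluster snoRNA genes lie above 0 (median 0.63) where the median of 209 others is -0.72. The lowest values include genes at 0 counts in all libraries of a group, whose fold change depends on the prior count.

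Beyond the cluster, within 500 kb of Dlk1 or Dio3, 9 of 22 annotated genes were tested. By edgeR 0 rose and 1 fell, against 13.6% and 11.7% of all tested genes, so 9 genes are too few to set the flanks apart. At an unadjusted p under 0.05, by limma voom or by DESeq2, 0 rose as well. Their median log2 fold change was -0.0077. On the Dlk1 side, Wdr25 had 7.12 ± 0.958 CPM in WT against 7.09 ± 1.20 CPM, and Begain had 22, 24 and 55 counts in WT against 65, 82 and 58, an estimate of 0.74 (SE 0.36, adjusted p = 0.177). On the Dio3 side, Hsp90aa1, a cytosolic chaperone gene, fell by 0.26 on the log2 scale (SE 0.03, adjusted p = 0.000653), and Ppp2r5c and Dync1h1 were not called. These flanking genes were chosen by position alone. Without WT replicate 3, 10 flanking genes were tested and 1 was called higher.

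**Figure D4:**
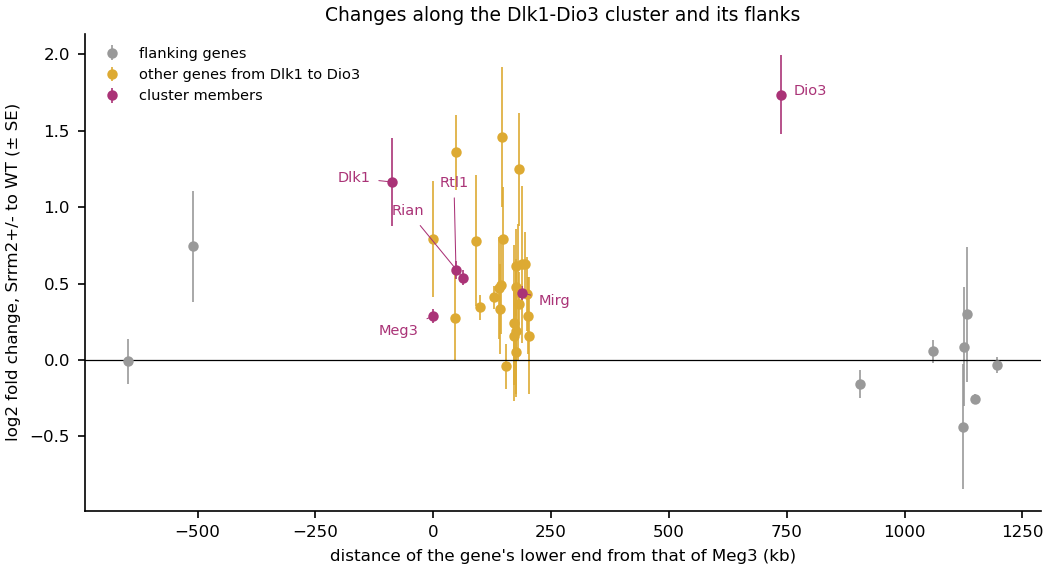
Log2 fold change of Srrm2+/- to WT (± SE) of every tested gene against its distance in kb from Meg3, for the 6 cluster genes (purple), the 26 other genes from Dlk1 to Dio3 (yellow) and 9 flanking genes (grey). Between Dlk1 and Dio3, 1 point lies below 0, at -0.0421, and the flanking genes lie on both sides of 0.

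Factors that set, keep or erase imprints were counted in a list of 20 genes, all tested, with a median log2 fold change of -0.0243. Of these, 7 rose (35%) and 4 fell (20%), against 13.6% and 11.7% of all tested genes, and the difference was not tested. The 4 largest changes were in the de novo DNA methyltransferases Dnmt3b (from 122 ± 8.25 to 237 ± 33.1 CPM, log2 fold change 0.95) and Dnmt3a (0.85), in Aff3 (0.87), whose protein binds the control region of this cluster, and in Dppa3 (0.71), whose protein protects imprints in the early embryo. The 4 that fell were Tet1, a DNA demethylase gene (-0.35), Suz12 (-0.29) of the Polycomb complex, Zfp57 (-0.25) and Setdb1 (-0.16), a histone methyltransferase gene recruited by TRIM28, named after their values were seen. Zfp57, the reader of the imprint, went from 293 ± 8.08 to 246 ± 8.36 CPM (SE 0.04, adjusted p = 0.00261). Its partner Trim28 was at 670 ± 31.7 and 639 ± 35.3 CPM (adjusted p = 0.408), and Dnmt1 at 335 ± 6.02 and 317 ± 10.1 CPM (adjusted p = 0.184).

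Of the imprinted genes listed in 2 other regions, those of distal chromosome 7 moved in both directions and all those of proximal chromosome 6 rose. Over all tested genes, 13.6% rose and 11.7% fell. On distal chromosome 7, H19 went from 0, 0 and 7 counts in WT to 253, 315 and 210, and Igf2, Cdkn1c and H19 rose while Phlda2 fell by 0.42 on the log2 scale. Kcnq1ot1, a paternal non-coding RNA of that region, had 170 ± 15.4 CPM in WT against 165 ± 5.58 CPM (log2 fold change -0.0432, SE 0.06). On proximal chromosome 6, Mest, Peg10 and Sgce rose by 4.11, 2.59 and 2.02 on the log2 scale, each more than any of the 6 cluster genes. The study's own text names H19 and Mest from these libraries, so these lists are not independent of it.

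**Figure D5:**
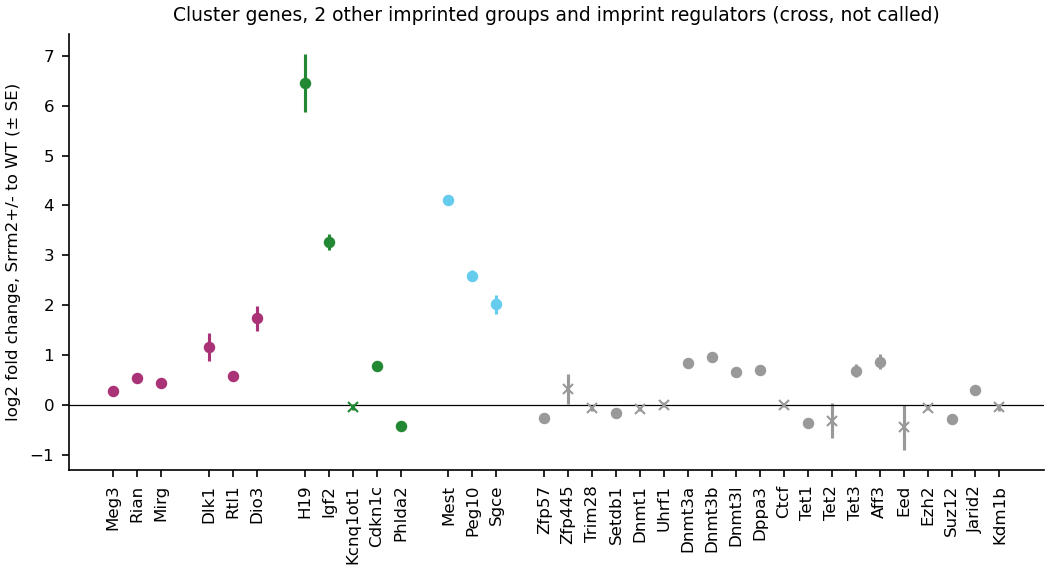
Log2 fold change of Srrm2+/- to WT (± SE) of the cluster genes (purple), imprinted genes of distal chromosome 7 (green) and proximal chromosome 6 (blue), and imprint regulators (grey). Crosses are genes that did not pass the test. The 6 cluster genes lie between 0.29 and 1.74, below Mest at 4.11 and H19 at 6.46.

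Microprocessor and Dicer pathway genes, which turn host transcripts into microRNAs, were tested as a list of 6. Of these, 1 was called (16.7%), against 25.3% of all tested genes. Ago2, whose protein carries the mature microRNA, fell by 0.19 on the log2 scale (SE 0.04, adjusted p = 0.00679). Xpo5, the nuclear exporter of precursors, had 156 ± 3.49 CPM in WT against 167 ± 3.28 CPM (adjusted p = 0.0856). Dgcr8 had 105 ± 1.65 CPM in WT against 98.9 ± 3.19 CPM, and Drosha had 109 ± 4.97 against 112 ± 2.90 CPM, and neither was called.

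The labels were checked on the trapped gene and on cell type markers. Srrm2 fell from 95.7 ± 3.94 to 59.3 ± 3.02 CPM (log2 fold change -0.69, SE 0.05, adjusted p = 2.38e-05). The summed level of 6 embryonic stem cell markers was 4041 to 4162 CPM in WT and 3478 to 3553 CPM in Srrm2+/-, and 4 of the 6 fell, among them Nanog by 0.72 on the log2 scale. The summed level of 8 fibroblast markers was 3.47 to 3.68 CPM in WT and 6.99 to 10.9 CPM in Srrm2+/- (4 of 6 tested rose), and that of 6 trophoblast markers was 4.44 to 4.88 and 9.35 to 10.4 CPM (2 of 4 tested rose). The sum of 7 primitive endoderm markers was 2.39 to 2.70 and 2.56 to 3.64 CPM (1 of 5 rose), and that of 6 neural markers was 98.6 to 103 and 73.3 to 77.9 CPM (1 of 5 rose and 2 fell). Beside these counts of markers, 13.6% of all tested genes rose and 11.7% fell. Dcn, Cdx2 and Neurog2 were at 0 in every WT library, and 0 markers were at 0 in all 6 libraries. The fibroblast and trophoblast sums were thus higher and the stem cell and neural sums lower in every Srrm2+/- library, and the primitive endoderm sums overlapped between the groups. The part of these shifts in the rises of the cluster genes was not tested.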

How the data were processed

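Total RNA libraries of 3 WT and 3 Srrm2+/- cultures were grouped and numbered by their titles. The authors pseudo-aligned reads with Kallisto 0.46.1 to GENCODE M24 transcripts (mm10) and deposited unnormalized estimated counts for each gene. Reads that fit several transcripts are split between them by Kallisto, so overlapping genes can exchange counts. Rounding to whole numbers left library totals of 54151433 to 69933421.

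Genes were named and placed with GENCODE M21 (GRCm38), which matched 42156 of 42450 identifiers. Annotated genes with no row in the table were not used here. Genes past filterByExpr (minimum count 10, minimum total 15) were tested with edgeR 4.0.16 (TMM, quasi-likelihood, genotype alone) in R 4.3.3. CPM used TMM-scaled library sizes, and errors are SD over 3 libraries. Limma 3.58.1 voom, DESeq2 1.42.0, other scalings and filters, the replicate block and leaving out each library were alternatives. Scripts were tested on simulated data.

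The members and lists were chosen with earlier results of these data known. Named genes were the members, tested genes from Dlk1 to Dio3, Srrm2, up to 4 genes of each list by size of change with called genes first, and the 5 genes most like each member; others are said to be chosen later or serve as checks. Replicates were separately frozen batches of 1 line per genotype, so p-values measure the spread between these batches. Some genes that this rule names are not reported here.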

Additional observations from a re-analysis of the deposited data

How the results depend on the processing

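The log2 fold changes of Meg3 (0.26 to 0.33), Rian (0.50 to 0.58), Mirg (0.41 to 0.48), Rtl1 (0.55 to 0.65) and Dio3 (1.59 to 2.02) stayed above 0 and past the threshold in every alternative that gave a value. Dlk1 kept its direction and lost its call with DESeq2 (1.17), and over the fits without 1 library it ranged from 1.09 to 1.27. With a filter of 1 CPM in every library of a group, Dlk1 was not tested. The rise in the ratio of Dlk1 to Meg3 ranged from 0.68 to 0.92 on the log2 scale. That in the ratio of Dlk1 to the sum of Meg3, Rian and Mirg was 0.60. The permutation p was 0.1 throughout, the smallest that these numbers of libraries can give.

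The number of other genes from Dlk1 to Dio3 called higher went from 5 to 3 with DESeq2, with genes of 1 or more counts in total kept and with the replicate block. Without 1 library it ranged from 2 (without Srrm2+/- replicate 3) to 5, and was 3 without WT replicate 1, WT replicate 3 or Srrm2+/- replicate 2. Flanking genes called ranged from 1 to 2, and those called higher from 0 to 1. The causes were not tested.

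Libraries with the same number did not deviate together (correlations -0.0285, -0.0337 and -0.0300), which does not settle whether the numbers pair them. Adding the replicate block lowered the SE of Rian (0.051 to 0.038), Mirg (0.047 to 0.036) and Rtl1 (0.059 to 0.042). It raised that of Meg3 (0.048 to 0.052), Dlk1 (0.29 to 0.32) and Dio3 (0.26 to 0.28). With the replicate block the calls over all genes went from 4781 to 4166, and all 6 cluster genes were called (Dlk1 1.16, adjusted p = 0.0459). Other scalings moved the median of all genes by under 0.01 on the log2 scale. Depth limits Dlk1, Dio3 and the short RNA genes, at 5 to 96 counts a library among those named as risen.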

Other observations

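Among Notch receptors, ligands and targets, the pathway to which the Dlk1 protein is related, 12 of 13 listed genes were tested. Of these, 5 rose (41.7%) and 3 fell (25%), against 13.6% and 11.7% of all tested genes, and the difference was not tested. The largest change was that of Dlk2, the paralog of Dlk1, with 1, 4 and 3 counts in WT and 33, 25 and 20 in Srrm2+/- (log2 fold change 2.97, SE 0.49, edgeR adjusted p = 0.00231). The receptor genes Notch3 and Notch4 moved in opposite directions, Notch3 by 0.59 and Notch4 by -0.83 on the log2 scale. The ligand genes Jag1 and Jag2 did so too, Jag1 from 21.4 ± 1.24 to 14.8 ± 0.789 CPM and Jag2 from 15.9 ± 0.797 to 23.0 ± 1.35 CPM (SD, n = 3 each).

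Likeness to each cluster gene was measured against 11960 tested genes (11961 for Dlk1 and Dio3) whose log2 CPM averaged 1 or more. The genes whose log2 CPM, centred on their own mean, followed each cluster gene most closely over the 6 libraries included 4933402E13Rik, Mmp2, Ptpn13, Crim1 and Snx7 for Dlk1. They included Cdc14b, Pdcl3, Eef2 and Atrnl1 for Meg3, and Spry1, Snrpn, Slc39a14 and Nr6a1 for Rian. For Mirg they were Mrpl34, Erbb2, 2900011O08Rik, Frmd5 and Ank2, and for Rtl1 they were Mir22hg, Zswim6, Ogfr, Arrdc1 and Itm2a. Aif1l, Serpinb9b, Meis2, Vopp1 and Gpx8 were the closest to Dio3. Of these, Snrpn, of the Prader-Willi and Angelman region, is widely known as imprinted. The genes named for Meg3 (0.29) had log2 fold changes of 0.26 to 0.29. Those named for Dlk1 (1.17) had 1.08 to 1.15. A close match thus requires a change of like size between the groups, and co-regulation was not tested. Of the genes above that level, a root mean square difference within 0.1 was found in 1160 genes for Meg3, 415 for Mirg, 249 for Rian, 164 for Rtl1, 12 for Dlk1 and 0 for Dio3. Among the cluster genes, the closest pairs were Rtl1 and Mirg (0.0794) and Rtl1 and Rian (0.0821), and Dio3 was the farthest from Meg3 (0.749). These pairs were not particular to the cluster. Among the genes compared, 74 were closer to Rtl1 than Mirg was, and 83 were closer to it than Rian was. In turn, 188 were closer to Mirg, and 131 closer to Rian, than Rtl1 was. The counts do not separate Rtl1 reads from those of the RNA antisense to it.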
